A study of Rattus norvegicus with 20 samples.

Results

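The Cyp4 genes code for cytochrome P450 enzymes that put a hydroxyl group on the far (ω) end of a fatty acid chain, and 9 of them, Cyp4a1, Cyp4a2, Cyp4a3, Cyp4a8, Cyp4b1, Cyp4f1, Cyp4f4, Cyp4f6 and Cyp4v3, were followed in the liver of rats fed tofu or casein with fish oil or soybean oil. Probe sets annotated to these symbols were taken from an Affymetrix Rat Genome 230 2.0 array, and where a gene had several, the one with the largest average over the 20 rats stood for it. In all, 10 probe sets carried a single one of the symbols, and they covered 8 of the 9 genes out of 14217 genes measured. Cyp4a2 had no probe set of its own, only 1 that it shared with Cyp4a3, and this shared probe set was left out of all counts of genes.

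Male Sprague-Dawley rats, 4 weeks old at arrival, ate 1 of 4 diets for 21 days, and 5 livers per diet were measured with 1 array per rat and no pooling. The diets combined casein with soybean oil (CS), casein with fish oil (CF), tofu with soybean oil (TS) and tofu with fish oil (TF). Every diet held 200 g of protein and 150 g of fat per kg, CF and TF held 50 g of fish oil per kg in place of the same amount of soybean fat, and the tofu diets still contained some casein. The rats that ate most and least in each group had been left out of the array measurement, so the livers come from animals of middling food consumption.

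Omega-hydroxylation opens a side route of fatty acid breakdown. The ω-hydroxy fatty acid made in the endoplasmic reticulum is turned by alcohol and aldehyde dehydrogenases into a dicarboxylic acid, which is then activated to a CoA ester and shortened mainly in peroxisomes. In rodent liver the Cyp4a genes are classical targets of the fatty acid receptor PPARα, whereas Cyp4f enzymes are best known for ω-hydroxylation of leukotrienes, arachidonic acid and very long chain fatty acids. Cyp4b1 acts on shorter fatty acids and on foreign compounds and is most abundant in lung, and the human counterpart of Cyp4v3 is mutated in a retinal dystrophy.

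The genes lie in clusters. On rat chromosome 5 the order of the measured members was Cyp4a8, Cyp4a2, Cyp4a3, Cyp4a1 and Cyp4b1, and the last 3 are immediate neighbours in the RefSeq annotation. On chromosome 7 Cyp4f4 precedes Cyp4f1 and Cyp4f6, which are again neighbours, and Cyp4v3 lies alone on chromosome 16. Promoter sequences were at hand for 6 of the 9 genes (RefSeq, build GRCr8), and those of Cyp4a2 and Cyp4a3 are shown because these are the genes that a single probe set could not tell apart. The windows hold the 250 bases before each start site on the minus strand, chr5:134170909-134171158 for Cyp4a2 and chr5:134352237-134352486 for Cyp4a3, and capitals mark bases that are not identical in the alignment of the pair.
Cyp4a2 promoter: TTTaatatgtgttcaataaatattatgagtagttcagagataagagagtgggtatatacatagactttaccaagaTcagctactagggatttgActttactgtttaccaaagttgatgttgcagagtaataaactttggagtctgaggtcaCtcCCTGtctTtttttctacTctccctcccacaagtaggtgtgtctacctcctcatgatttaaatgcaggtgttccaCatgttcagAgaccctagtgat
Cyp4a3 promoter: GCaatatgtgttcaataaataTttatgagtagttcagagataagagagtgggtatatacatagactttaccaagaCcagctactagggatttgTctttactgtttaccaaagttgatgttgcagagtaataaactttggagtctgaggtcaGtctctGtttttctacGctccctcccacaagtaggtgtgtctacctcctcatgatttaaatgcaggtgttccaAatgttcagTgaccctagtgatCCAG
These windows were identical at 236 of 255 aligned columns (92.5%). With 50 bases after the start site included, Cyp4a2 was 58.6% identical to Cyp4a8 and Cyp4a3 was 58.3% identical to it. A direct repeat of AGGTCA with 1 base (N) between the copies, the consensus site of PPARα with its partner RXR, was searched on both strands of these longer windows. With up to 2 mismatches it was in none of the 6 promoters and in 3.77% of all 33469 promoters. With up to 3 mismatches it was in 3 of the 6, Cyp4a2, Cyp4a3 and Cyp4b1, and in 24.9% of all. Cyp4a1, Cyp4f4 and Cyp4v3 had no promoter sequence at hand and were not searched. A site outside these windows would have been missed.

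Expression is given as a z score, a log measure in which each array was standardised to its own distribution of signals and a difference of 0.2 stands for a 1.41-fold difference. Single z values of different genes come from different probes and were not set against each other. Pairs of arrays correlated at 0.929 to 0.965. The mean z of 5 marker genes of hepatocytes, which make up most of the liver, was 3.15 to 3.42 per rat. A 5′ beta-actin control was low in 1 rat of each group (TF-3, TS-1, CF-1 and CS-1, at 1.30 to 1.42 against 1.86 to 2.13 in the others), and the arrays of TS-7, TF-4 and TF-5, all on tofu, correlated least with the rest. An adjusted p is from limma with Benjamini-Hochberg adjustment over all 31039 probe sets tested, and a gene was called where it was under 0.05. Before adjustment, limma p was under 0.05 in 3159 of these for tofu against casein (the protein effect). For fish oil against soybean oil (the oil effect) it was under 0.05 in 1722.

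Fish oil raised Cyp4a1 and Cyp4a3, which code for fatty acid ω-hydroxylases. Averaged over both proteins, Cyp4a1 was 2.51-fold and Cyp4a3 2.0-fold higher on fish oil, and every rat on fish oil lay above every rat on soybean oil for both genes. No other Cyp4 gene was called for the oil effect. These were 2 of 8 genes called, both higher, while 0.302% of all genes were called. Of all probe sets 0.193% were called and 0.177% were called as higher. In whole liver, more cells of a type and more RNA per cell cannot be told apart.

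For Cyp4a1 (probe set 1368934_at) the 5 CS livers had z scores of 2.34, 2.35, 2.36, 2.13 and 2.39, and the 5 TS livers 2.39, 2.26, 2.07, 2.25 and 2.10. The CF livers had 2.59, 2.75, 2.87, 2.89 and 2.69, and the TF livers 3.02, 2.89, 2.76, 2.75 and 2.74. All fish oil livers were thus above all soybean oil livers, with a gap between 2.39 and 2.59, and CF and TF overlapped, as did CS and TS. The mean was 2.31 ± 0.10 for CS, 2.76 ± 0.13 for CF, 2.21 ± 0.13 for TS and 2.83 ± 0.12 for TF (SD, n = 5). The oil effect was 0.53 ± 0.053 (SE), or 2.51-fold with a 95% interval of 2.07 to 3.05 (limma adjusted p = 2.56e-05). The annotation gives this probe set the gene identifier of Cyp4a1 beside a transcript accession that the current RefSeq table assigns to Cyp4b1, so its values are those of the probe set as annotated.

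Cyp4a3 (1370397_at) showed the same order with less distance between the diets. Its z scores were 2.21, 2.11, 2.32, 2.28 and 2.30 in CS and 1.97, 2.27, 2.04, 2.0 and 2.17 in TS. With fish oil they were 2.33, 2.43, 2.75, 2.44 and 2.62 in CF and 2.71, 2.66, 2.58, 2.55 and 2.59 in TF. The lowest fish oil liver, a CF rat at 2.33, was only just above the highest soybean oil liver, a CS rat at 2.32, whereas TF and TS lay far apart. The oil effect was 0.40 ± 0.052 (SE), 2.0-fold with a 95% interval of 1.66 to 2.42 (limma adjusted p = 0.000594). Non-overlap of all 10 fish oil and all 10 soybean oil livers was seen for 2 of the 8 Cyp4 genes and occurred in 0.0805% of all probe sets.

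The shared probe set of Cyp4a2 and Cyp4a3 (1394844_s_at) did not pass the test. Its z scores were 2.62, 2.51, 2.70, 2.61 and 2.76 in CS, 2.80, 2.62, 3.01, 2.61 and 2.83 in CF, 2.73, 2.84, 2.24, 2.56 and 2.61 in TS, and 3.16, 2.74, 2.83, 2.94 and 2.85 in TF. Fish oil and soybean oil livers overlapped, with 4 of 10 fish oil livers above the highest soybean oil liver. The oil effect was 0.22 ± 0.072 (SE), 1.46-fold with a 95% interval of 1.13 to 1.90, at a limma adjusted p of 0.592. It was smaller than that of the Cyp4a1 probe set by 0.31 (two-sided exact permutation of the oil labels within each protein, p = 0.000189, 0.000258 after Benjamini-Hochberg adjustment over 15 pairs) and than that of the Cyp4a3 probe set by 0.18 (exact permutation p = 0.0103, adjusted 0.011). Cyp4a1 and Cyp4a3 entered these comparisons as the genes called for oil in the same rats, which favours a small p. The permutation p values are therefore no independent test of these differences. What part Cyp4a2 had in the signal of the shared probe set was not tested.

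**Figure D1:**
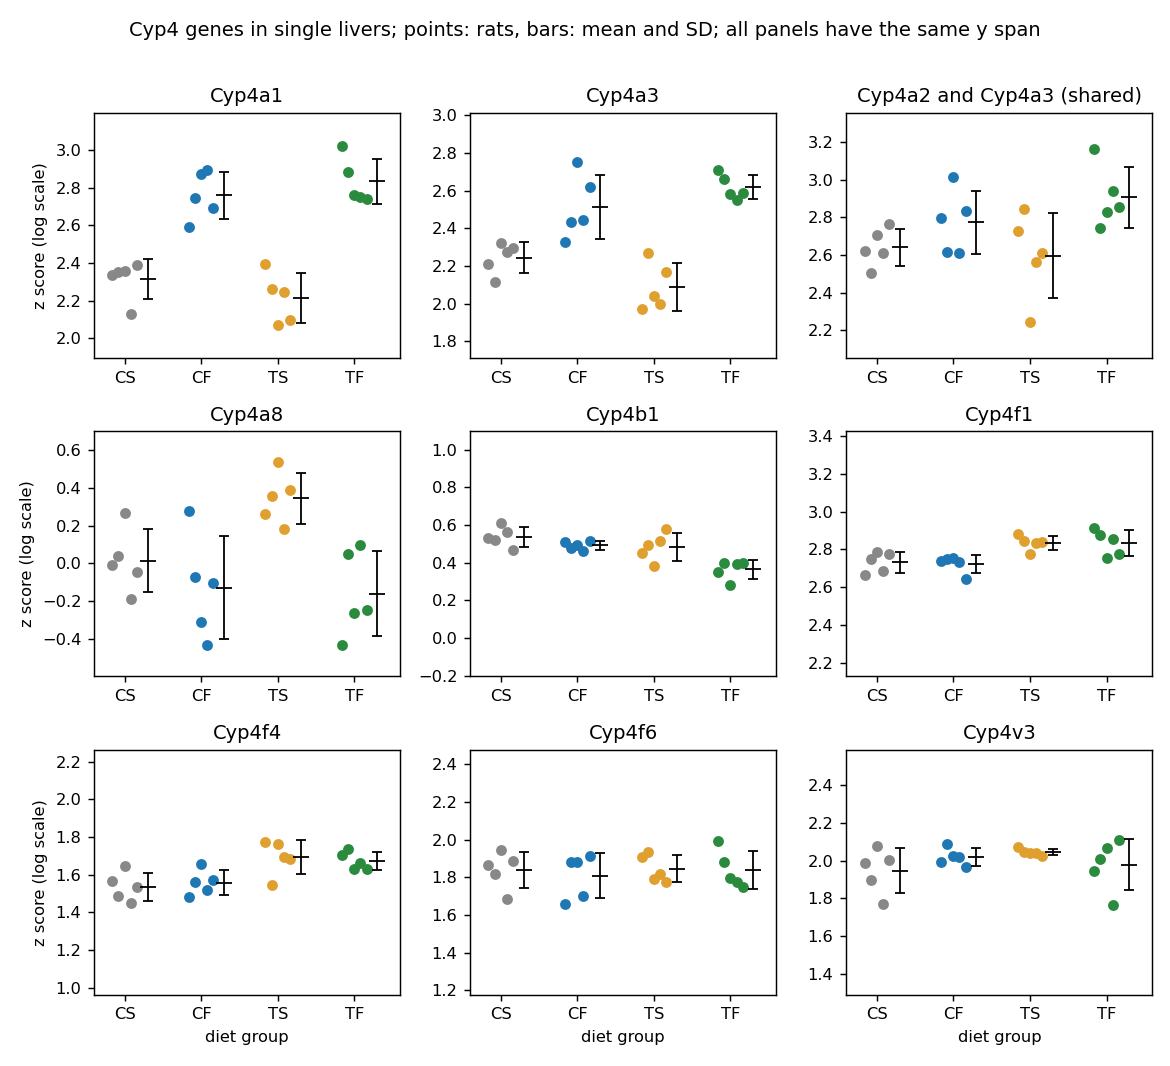
Z score (log scale, y axis) of 8 Cyp4 genes and of the probe set shared by Cyp4a2 and Cyp4a3 in each liver, by diet group (x axis); coloured points are the 5 rats of a group, and black bars give their mean and SD. In the Cyp4a1 and Cyp4a3 panels all CF and TF points lie above all CS and TS points, while the Cyp4f6 and Cyp4v3 panels show overlapping groups.

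The fish oil differences of Cyp4a1 and Cyp4a3 were larger by value on tofu than on casein. On casein (CF minus CS) Cyp4a1 differed by 0.44 ± 0.075 (SE), 2.16-fold, and was called (limma adjusted p = 0.0283), and Cyp4a3 differed by 0.27 ± 0.073 and was not (adjusted p = 0.61). That made 1 of 8 genes called, against 0.0844% of all genes and 0.0451% of all probe sets. On tofu (TF minus TS) Cyp4a1 rose by 0.62 ± 0.075 (SE), 2.92-fold (limma adjusted p = 0.000658), and Cyp4a3 by 0.53 ± 0.073 (SE), 2.50-fold (limma adjusted p = 0.00241). That was 2 of 8 genes, against 0.134% of all genes and 0.0677% of probe sets. The Cyp4a1 call on casein lay near the threshold, while its difference changed little. It was lost, at limma adjusted p between 0.0597 and 0.143, on leaving out any 1 of CS-1, CS-2, CS-5, CS-6, CS-7, CF-2, CF-5, CF-6 and CF-7, with differences of 0.40 to 0.46, and held without any 1 of the other 11 rats. It was lost too without the 3 least correlated arrays, none of them from a CS or CF rat (adjusted p = 0.059), as was the call of Cyp4a3 on tofu (difference 0.55, adjusted p = 0.0607).

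The larger value on tofu was not itself established. The interaction, the oil effect on tofu minus that on casein, was 0.17 (95% interval -0.05 to 0.40) for Cyp4a1 and 0.26 (0.04 to 0.47) for Cyp4a3, with unadjusted limma p of 0.118 and 0.0231 and adjusted p of 1 for both. No Cyp4 gene and no probe set at all (0 of 31039) was called for the interaction, and 1065 of them had an unadjusted p under 0.05 (limma). For the 2 genes the order of group means was the same, TS below CS below CF below TF. Of the neighbours in that order, the pairs on the same oil (TS and CS, CF and TF) were not called for either gene. TS minus CS was -0.10 (95% interval -0.26 to 0.06, limma adjusted p = 0.849) for Cyp4a1 and -0.15 for Cyp4a3, where the interval of -0.31 to -0.0002 narrowly excluded 0 (unadjusted limma p of 0.0497 and adjusted p of 0.699). For CF and TF the limma adjusted p was 0.91 and 0.852. In TS minus CS limma called 0 of the 8 genes, where 0.106% of all genes and 0.0709% of probe sets were called. An unadjusted p under 0.05 was found in 4 of the 8 and in 2218 of all 31039 probe sets. In TF minus CF limma called 0 of 8, against 0.0985% of all genes and 0.0677% of probe sets. There 3 of the 8 and 2142 of all probe sets had an unadjusted p under 0.05.

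Against the CS diet, the diet with both tofu and fish oil raised the same 2 genes. Cyp4a1 was 0.52 ± 0.075 (SE) higher in TF, 2.46-fold (limma adjusted p = 0.00196), and Cyp4a3 0.37 ± 0.073 (SE) higher, 1.91-fold (limma adjusted p = 0.0236). This was 2 of 8 genes, where 0.753% of all genes and 0.457% of probe sets were called. The call of Cyp4a3 was lost on leaving out any 1 of CS-1, CS-2, TF-3, TF-4 and TF-7 (difference 0.34 to 0.38, limma adjusted p from 0.0514 to 0.0846), without the 4 rats of low 5′ actin or the 3 least correlated arrays (adjusted p = 0.0989 and 0.13), and with quantile normalization (difference 0.32, adjusted p = 0.0697). The comparisons of CF, TS and TF with CS share the CS rats, so their values are not independent.

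**Figure D2:**
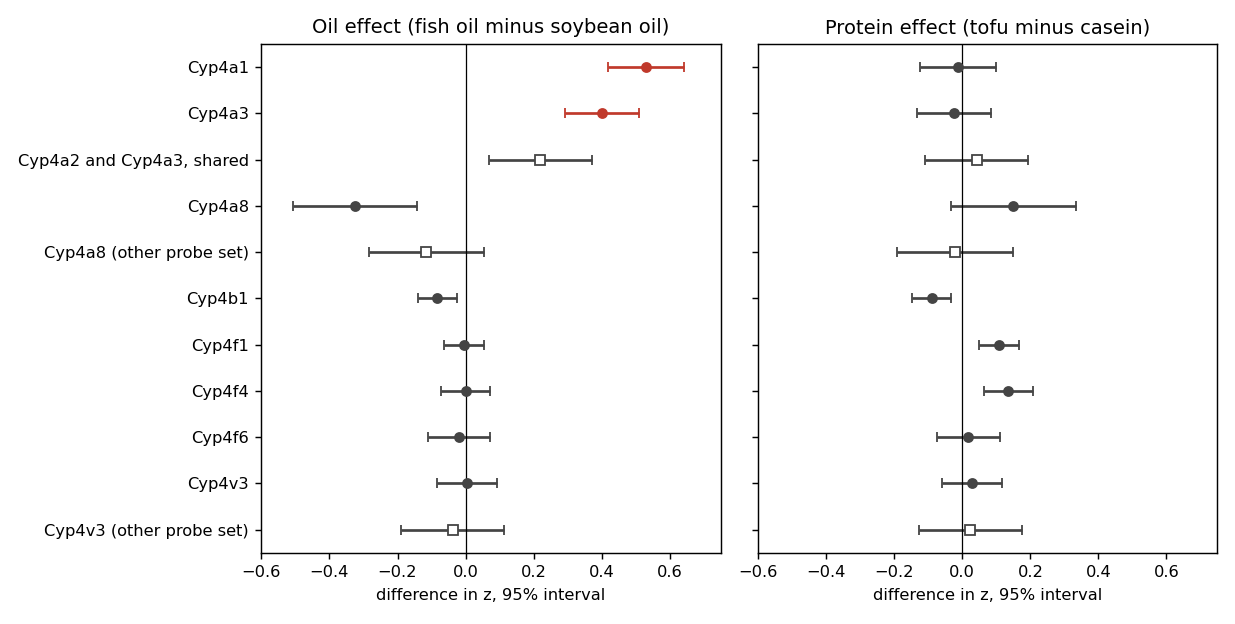
Oil effect (left, fish oil minus soybean oil) and protein effect (right, tofu minus casein) of every Cyp4 probe set as a difference in z with its 95% interval (x axis); filled circles are the probe sets that stand for a gene, open squares the others, and red marks an adjusted p under 0.05. Only the oil effects of Cyp4a1 (0.53) and Cyp4a3 (0.40) are red; the intervals of Cyp4f1 and Cyp4f4 lie above 0 for the protein effect but were not called.

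Cyp4a8, a family member best known from the kidney and prostate, went the other way in value and was not called. Its probe set (1368607_at) was dim, with a mean z of 0.02 near the middle of all probe sets, and no detection call comes with the values. The z scores were -0.01, 0.04, 0.27, -0.19 and -0.04 in CS, 0.28, -0.07, -0.31, -0.44 and -0.11 in CF, 0.26, 0.36, 0.54, 0.18 and 0.39 in TS, and -0.43, 0.05, -0.27, 0.10 and -0.25 in TF. All 5 TS livers were above all 5 TF livers, while CS and CF overlapped widely. The oil effect was -0.32 (95% interval -0.51 to -0.14), with a limma adjusted p of 0.323, the protein effect 0.15 (-0.03 to 0.33, adjusted p = 0.598), and TF minus TS was -0.51 ± 0.12 (SE), adjusted p = 0.319.

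The other Cyp4a8 probe set (1393894_at) gave 0.11, 0.06, 0.18, 0.02 and 0.01 in TS and -0.38, -0.47, -0.76, -0.05 and -0.26 in TF, again with no overlap. Its TF minus TS difference was -0.46 ± 0.11 (SE, limma adjusted p = 0.361). On casein the pair of probe sets disagreed in direction: CF minus CS was -0.14 (95% interval -0.40 to 0.12) in the one and 0.23 (-0.01 to 0.47) in the other. The oil effect on tofu minus that on casein was -0.36 (-0.73 to 0.0026) in the main and -0.69 (-1.03 to -0.35) in the other probe set, with unadjusted limma p of 0.0515 and 0.000447 and an adjusted p of 1 for both. Non-overlap of TF and TS was seen in 1.04% of all probe sets.

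The oil effects of Cyp4a1 and Cyp4a3 were each set against those of the other 6 genes in the same rats. Cyp4a1 and Cyp4a3 were chosen for this as genes called for oil in these rats, and the other 6 were not called. For Cyp4a1 the difference ran from 0.53 against Cyp4v3 to 0.86 against Cyp4a8, with two-sided exact permutation p of 3.15e-05 to 0.000157 (adjusted over the 15 pairs, 7.87e-05 to 0.000236). For Cyp4a3 it ran from 0.40 against Cyp4v3 to 0.72 against Cyp4a8, with exact permutation p of 3.15e-05 to 0.000315 (adjusted, 7.87e-05 to 0.000363). The smallest p that the 63504 relabelings can give is 3.15e-05. Setting called genes against uncalled ones favours a small p, and the adjustment over pairs does not undo this. These p values are therefore no independent test of whether the oil effects differ. Between Cyp4a1 and Cyp4a3 the difference of 0.13 was within what relabeling gives (exact permutation p = 0.0626). Probe sets can differ in how steeply their signal follows the amount of RNA, which was not tested.

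**Figure D3:**
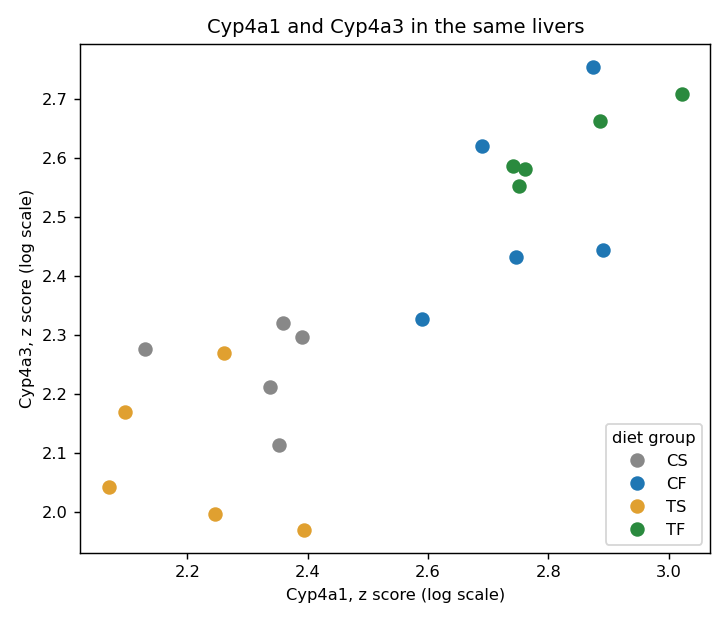
Cyp4a1 (x axis) and Cyp4a3 (y axis), both as z scores on a log scale, in each of the 20 livers, coloured by diet group. Soybean oil livers sit at the lower left and fish oil livers at the upper right without overlap on either axis; within the clusters the pair has little common trend (r = 0.22 once group means are taken off).

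Cyp4f1 and Cyp4f4, ω-hydroxylases of leukotrienes and arachidonic acid, were a little higher on tofu than on casein, and neither was called. Cyp4f1 (1368467_at) had z scores of 2.66, 2.75, 2.79, 2.69 and 2.77 in CS and 2.74, 2.75, 2.75, 2.73 and 2.64 in CF. On tofu they were 2.88, 2.85, 2.78, 2.83 and 2.84 in TS and 2.91, 2.88, 2.75, 2.85 and 2.78 in TF. All 10 tofu livers were above the casein mean, and 7 of 10 were above the highest casein liver. The protein effect was 0.11 ± 0.028 (SE), 1.20-fold with a 95% interval of 1.09 to 1.33 (limma adjusted p = 0.1).

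Cyp4f4 (1387973_at) had 1.56, 1.49, 1.65, 1.45 and 1.53 in CS, 1.48, 1.56, 1.66, 1.52 and 1.57 in CF, 1.78, 1.55, 1.76, 1.70 and 1.68 in TS, and 1.70, 1.74, 1.63, 1.66 and 1.63 in TF. The groups overlapped, with 9 of 10 tofu livers above the casein mean. Its protein effect was 0.14 ± 0.034 (SE), 1.26-fold with a 95% interval of 1.12 to 1.43 (limma adjusted p = 0.0914). No Cyp4 gene was called for the protein effect by limma, where 0.921% of all genes and 0.557% of probe sets were called. Of the 8, 3 had an unadjusted p under 0.05. With only probe sets of mean z above 0 in the table, both Cyp4f1 and Cyp4f4 passed (adjusted p = 0.0277 and 0.0269). Cyp4f4 also passed with arrays scaled to the same median and interquartile range (0.0463), with a robust variance trend (0.0433) and without rat TS-2 (protein effect 0.15, adjusted p = 0.0352), and the Cyp4f1 effect fell to 0.04 with quantile normalization.

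Markers of hepatocytes around the central vein moved with the same contrast. Of 7 such genes 3 rose on tofu, where 0.921% of all genes were called. These were the caffeine-metabolising P450 Cyp1a2 (0.43, limma adjusted p = 0.00924), ornithine aminotransferase Oat (0.42, adjusted p = 0.0043) and the glutamate transporter Slc1a2 (0.34, adjusted p = 0.00228). The other 4, Glul, Cyp2e1, Rgn and Lgr5, were higher by 0.15 to 0.21 and were not called. Their level, as a mean z over the 7 genes, was 1.26 to 1.53 across CS rats, 1.32 to 1.44 across CF rats, 1.56 to 1.72 across TS rats and 1.67 to 1.78 across TF rats. Endothelial markers were higher on tofu as well, in 6 of 6 genes, though limma called 0 of them and 3 had an unadjusted p under 0.05. The nearest to the threshold were the Fc receptor Fcgr2b (0.17, adjusted p = 0.0534) and the scavenger receptor Stab2 (0.13, adjusted p = 0.0635). Their mean z was 1.003 to 1.13 across CS rats, 1.01 to 1.11 across CF rats, 1.11 to 1.26 across TS rats and 1.09 to 1.19 across TF rats. In the other 6 classes limma called 0 for protein, and 1 of 5 general hepatocyte markers and 2 of 7 periportal ones had an unadjusted p under 0.05. Periportal Sds was higher on tofu by 0.41, as much as Oat by value, and was not called (limma adjusted p = 0.17). Of the 7 periportal markers 5 were higher and 2 lower. The part of these markers in the Cyp4f values was not tested. For the oil effect limma called 0 of the 7 pericentral markers and 0 of the 32 markers of 7 other cell classes, with 1 and 2 of them at an unadjusted p under 0.05.

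Cyp4b1 (1370399_at), which hydroxylates shorter fatty acids and foreign compounds, had its lowest values in TF. Its z scores were 0.53, 0.52, 0.61, 0.56 and 0.47 in CS, 0.51, 0.48, 0.49, 0.46 and 0.52 in CF, 0.45, 0.49, 0.38, 0.52 and 0.58 in TS, and 0.35, 0.40, 0.28, 0.39 and 0.40 in TF. The TF livers were below all CS and all CF livers and overlapped TS. Non-overlap of TF with CS was seen in 2.25% and of TF with CF in 1.52% of all probe sets. TF minus CS was -0.17 ± 0.039 (SE), 1.35-fold lower, just short of the threshold (limma adjusted p = 0.0597). In 6 of 12 other settings TF minus CS passed, with adjusted p from 0.014 to 0.0419, and over all 12 the adjusted p ran up to 0.31. It passed also without TS-4 or TS-7 (adjusted p = 0.0453 and 0.044, difference -0.17 in both). Over all left-out rats the adjusted p ran up to 0.156.

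Cyp4f6 and Cyp4v3 were flat. Cyp4f6 (1387916_at), a further member of the Cyp4f cluster, ranged over 1.66 to 1.99 in all 20 livers, and the lowest and highest group means were 1.81 (CF) and 1.84 (TS). Its oil effect was -0.02 (95% interval -0.11 to 0.07) and its protein effect 0.02 (-0.07 to 0.11). For Cyp4v3 (1388127_at), a fatty acid ω-hydroxylase, the oil effect was 0.0034 (-0.08 to 0.09) and the protein effect 0.03 (-0.06 to 0.12). The other Cyp4v3 probe set (1370889_at) gave -0.04 (-0.19 to 0.11) and 0.02 (-0.13 to 0.18). As a ratio of fish oil to soybean oil, the oil intervals of the main probe sets ran from 0.824 to 1.14 in Cyp4f6 and from 0.863 to 1.17 in Cyp4v3. Of 2 further Cyp4 genes on the array with a symbol of their own, Cyp4f5 and Cyp4f17, limma called 0 for oil (0.0013 and -0.08) or protein (0.16 and -0.12), with 0 and 1 at an unadjusted p under 0.05. For Cyp4f5 the fish oil difference was -0.24 on casein (95% interval -0.50 to 0.03) and 0.24 on tofu (-0.02 to 0.51), neither called.

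The enzymes downstream of ω-hydroxylation changed unevenly on fish oil. Among 10 measured alcohol and aldehyde dehydrogenases 1 rose, where 0.302% of all genes were called for oil. This was Aldh1a1, better known for making retinoic acid, by 0.56 ± 0.075 (SE), 2.63-fold (limma adjusted p = 0.000834). It went from 1.43 in CS to 1.76 in CF and from 1.18 in TS to 1.96 in TF. Aldh3a2, the fatty aldehyde dehydrogenase of the endoplasmic reticulum, differed by 0.12 and was not called (adjusted p = 0.137), and Aldh1b1 by -0.31 (adjusted p = 0.244). The alcohol dehydrogenases Adh4 and Adh7 had oil effects of 0.13 and 0.16 and protein effects of 0.21 and 0.20, none of them called (limma adjusted p = 0.746, 0.863, 0.082 and 0.282 in that order). The median oil effect over the 10 was 0.04, against -0.0018 over all genes. For the protein effect limma called 0 of the 10, with 3 at an unadjusted p under 0.05, and Adh1 and Adh6 were not measured by a probe set of their own.

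The next stage, activation of dicarboxylic acids and their shortening in peroxisomes, moved widely. Of 13 measured genes 8 rose on fish oil and 0 fell, all 13 differences were above 0, and the median was 0.19, where 0.302% of all genes were called. Acot4, a peroxisomal thioesterase known for succinyl-CoA, rose by 0.53 (2.52-fold, limma adjusted p = 2.56e-05). Ehhadh, the bifunctional enzyme that takes up dicarboxylic acyl-CoA, rose by 0.51 (2.44-fold, adjusted p = 0.000317). The acyltransferases that export shortened chains as carnitine esters rose too, Crat by 0.50 and Crot by 0.41, as did the peroxisomal thioesterase Acot3 by 0.50. Smaller rises were those of the CoA hydrolase Nudt7 (0.24), the transporter Abcd3, which carries dicarboxylic acids into peroxisomes (0.19), and the very long chain acyl-CoA synthetase Slc27a2 (0.16). On tofu Acot4 fell by 0.31 (adjusted p = 0.00924), the single gene of the 13 called for protein, where 0.921% of all genes were called, and without the 3 least correlated arrays 0 of the 13 were called. Acsl1, Hsd17b4 and Acot8 had oil effects of 0.08 to 0.11 that were not called.

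**Figure D4:**
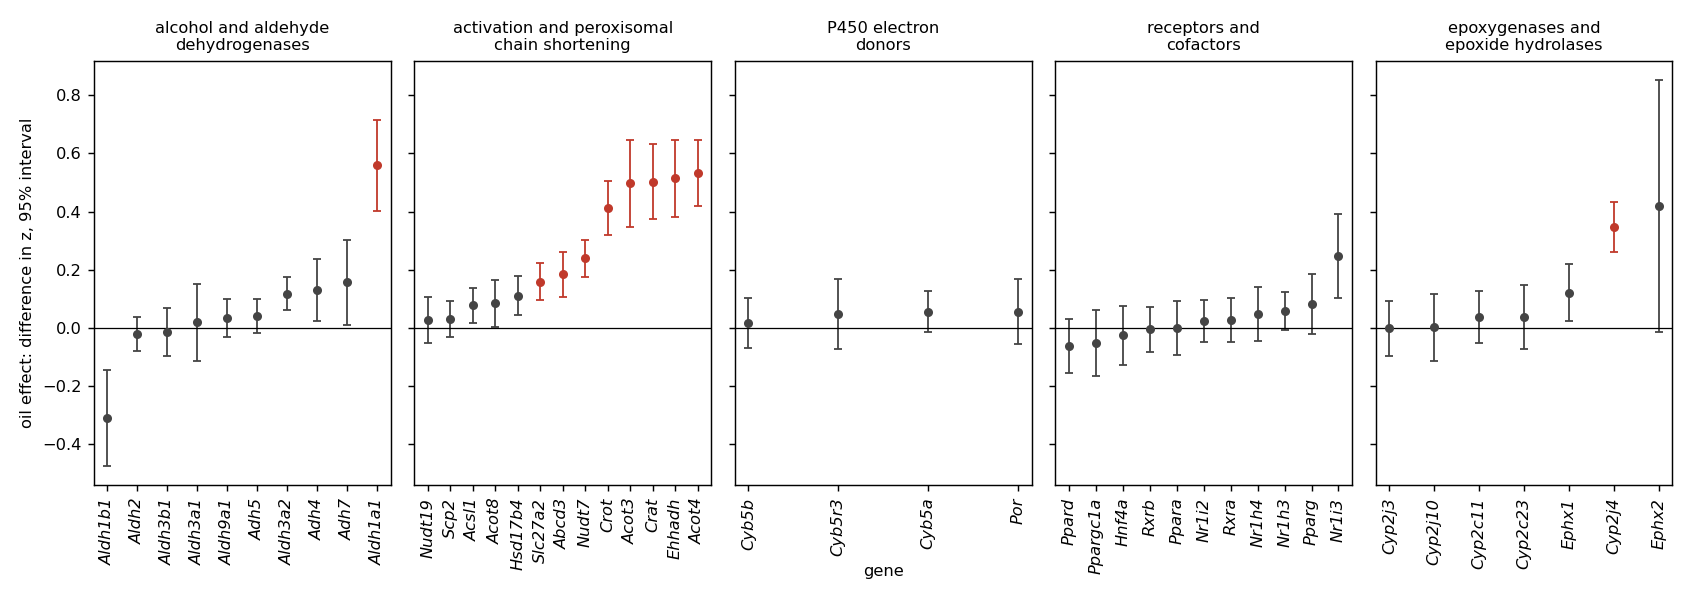
Difference in z between fish oil and soybean oil, with its 95% interval (y axis), of single genes (x axis) in 5 lists around ω-hydroxylation, ordered by size within each list; red marks an adjusted p under 0.05. Of 13 genes of activation and peroxisomal chain shortening 8 are red, against 1 of 10 dehydrogenases, 0 of 4 electron donors, 0 of 11 receptors and cofactors and 1 of 7 epoxygenases and epoxide hydrolases. Of all genes 0.302% were called for oil.

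Genes that serve the P450 enzymes themselves were not called. The electron donors Por, Cyb5a, Cyb5b and Cyb5r3 had oil effects of 0.02 to 0.06, and limma called 0 of the 4 for oil or protein, with 0 and 1 at an unadjusted p under 0.05. Of 11 receptors and cofactors limma called 0 for oil, with 1 at an unadjusted p under 0.05, and Ppara itself differed by 0.0012. Ppard, Pparg and Nr1h3 had oil effects of -0.06, 0.08 and 0.06. The constitutive androstane receptor Nr1i3, a regulator of drug-metabolising P450 genes, rose by 0.42 on tofu (limma adjusted p = 0.00551) and had an oil effect of 0.25 that was not called (adjusted p = 0.349).

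Other genes known as PPARα targets, a list chosen with the fish oil response known, rose in 12 of 25 cases on fish oil, where 0.302% of all genes were called, and fell in none, with a median of 0.15. The largest rise was that of the cytosolic thioesterase Acot1 (2.31, limma adjusted p = 1.54e-05), followed by the pantetheinase Vnn1 (0.70), the mitochondrial thioesterase Acot2 (0.60) and the isomerase Eci1 (0.60). The other 8 called, Ech1, Pex11a, Cidea, Decr1, Cpt2, Hadhb, Slc25a20 and Hadha, rose by 0.19 to 0.51. On tofu 4 fell and 0 rose, where 0.921% of all genes were called: Pdk4, which restrains glucose oxidation, by 0.55, the hormone Fgf21 by 0.50, the lipase inhibitor Angptl4 by 0.29 and the lipid droplet protein Plin2 by 0.17. This count was 1 without the 4 rats of low 5′ actin and 1 without the 3 least correlated arrays. Cyp4a1 and Cyp4a3 differed by -0.01 and -0.03 between the proteins, with 95% intervals of -0.12 to 0.10 and -0.13 to 0.08.

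Cytochromes that oxygenate the same polyunsaturated fatty acids at other positions were mostly level. Of 7 epoxygenases and epoxide hydrolases 1 rose on fish oil, Cyp2j4, by 0.35 ± 0.041 (SE), 1.82-fold (limma adjusted p = 0.000239), where 0.302% of all genes were called. Cyp2c11 and Cyp2c23, the arachidonic acid epoxygenases, had oil effects of 0.04 each, and that of the microsomal epoxide hydrolase Ephx1 was 0.12, not called. Ephx2, the soluble epoxide hydrolase, spread widely, with means of 1.62 ± 0.21 for CS, 2.03 ± 0.23 for CF, 1.02 ± 0.56 for TS and 1.46 ± 0.76 for TF (SD, n = 5), and was not called (limma adjusted p = 0.908 for oil and 0.295 for protein). For the protein effect limma called 0 of the 7, with 4 at an unadjusted p under 0.05.

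Over the 20 livers, the genes whose pattern was most like that of Cyp4a1 among 14216 other genes were Eci1 (Pearson r = 0.966), Ech1 (0.960), Aig1 (0.952), Ehhadh (0.947) and Pex11a (0.927). All 5 were themselves called for the oil effect, so the points share the diet contrast. With the group means taken off, the highest were Mrps18b (0.882), Ech1 (0.854), Uqcrc1 (0.850), Cox4i1 (0.843) and Ehhadh (0.842), and Mrps18b, Uqcrc1 and Cox4i1 had no called oil effect. Cyp4a1 and Cyp4a3 correlated at 0.856 over the livers and at 0.223 with group means taken off. For Cyp4f4, the gene of smallest p for the protein effect, the most alike were Ifi35 (0.861), Nat8 (0.839), Cbs (0.831), Smagp (0.828) and Uba7 (0.827), of which Nat8 and Smagp were called for protein. With group means taken off they were Dpm2 (0.80), Exosc5 (0.798), Znhit1 (0.797), Mrps34 (0.796) and Ifi35 (0.785). These correlations are descriptions over arrays that also share their scaling.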

How the data were processed

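Hepatic mRNA of 20 rats was measured on Affymetrix Rat Genome 230 2.0 arrays. The deposited values are scores, 1 per probe set and rat: the authors standardised the signals of each array to its own lognormal distribution with the SuperNORM service, giving z scores on a log scale. The software version and the handling of background are not given in the sources used here. The table holds 31099 probe sets, 57 of them controls, and lacks 63 values. Tests used the 31039 others that had 3 or more values per group. Symbols came from the array annotation, updated by gene identifier, and 20825 probe sets had 1 symbol, 436 several and 9778 none. The 9 Cyp4 genes and all gene lists were chosen with earlier results of these data known. Group means were fitted for all probe sets together with limma 3.58.1 in R 4.3.3, with Benjamini-Hochberg adjustment and a threshold of 0.05; it stands in for the authors' ANOVA over single Perfect Match cells, which were not used here. The genes named are the 9 members, the called members of each list with up to 3 further members of large difference (for most marker lists only the counts are given), and for Cyp4a1 and Cyp4f4 the 5 genes of highest Pearson r. Aldh3a2, Cyb5r3, Ppara, Cyp2c11 and Glul fall outside this rule and were named after their values were seen. Oil effects of genes were compared by exact permutation of oil labels within each protein, always with Cyp4a1 or Cyp4a3, called for oil in the same rats, on one side. Labels give 1 array per rat, so the SD is between rats; how many arrays there are limits the precision. The model was tested on simulated data: of oil effects of 0.2, 0.4 and 0.8 in z, 35.8%, 83.6% and 98.5% were recovered with 6 false calls among 31039 probe sets, and of protein effects of these sizes 41.8%, 83.6% and 100% with 7. The simulated noise was independent between probe sets and arrays. Deviations shared by the probe sets of an array were not simulated, so these rates cannot be carried over to the real arrays. Rat numbers recur between the groups. Over 22 pairs of rats with the same number the deviations from the group means correlated at -0.0982 to 0.127, with a median of 0.0371. Over 128 pairs with other numbers they correlated at -0.116 to 0.22, with a median of -0.00804. The numbers were not taken as pairs. Of the rats with low 5′ actin, CS-1, CF-1 and TS-1 share a number and TF-3 does not. Whether rats of a number were handled together was not tested. Alternatives were other scalings, filters, models and blocks, and leaving out each rat. Leaving out the 4 rats of low 5′ actin, or the 3 least correlated arrays, was added after seeing the data.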

Additional observations from a re-analysis of the deposited data

Results flagged for a closer look

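Among 44 groups of 5 rats tested, 3 held a rat far from the others by Dixon's criterion, where chance gives about 1 in 20. The Cyp4a1 z score of rat CS-6 was 2.13, below the other CS livers at 2.34 to 2.39. That of Cyp4f1 in rat CF-7 was 2.64, below the other CF livers at 2.73 to 2.75. The other Cyp4v3 probe set (1370889_at) read 0.61 in rat TF-7, above the other TF livers at 0.32 to 0.40. The Cyp4a1 oil effect was 0.51 to 0.55 over fits that left out each rat in turn, CS-6 among them.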

How the results depend on the processing

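The oil count of 2 Cyp4 genes, the interaction count of 0 and the counts of 0 for TS minus CS and TF minus CF held under every alternative run. The count for the protein effect (0) became 1 with the same median and interquartile range, 2 with mean z above 0 only and 1 with a robust variance trend, and ran from 0 to 1 when each rat was left out. The count for CF minus CS (1) became 0 with the same median and interquartile range, without moderation, with only CS and CF in the fit and without the 3 least correlated arrays, and ran from 0 to 1 over left-out rats. The count for TF minus CS (2) was 1 without the 4 rats of low 5′ actin and 1 without the 3 least correlated arrays, and 1 to 3 over left-out rats, and that for TF minus TS (2) was 1 without the 3 arrays. With the rat number as a replicate block, the counts for CF minus CS, TF minus CS and TF minus TS were 0. Cyp4a1 and Cyp4a3 kept their oil calls there (limma adjusted p = 0.00433 and 0.022). With the block 27 probe sets were called for oil and 91 for protein, against 60 and 173 without it. Pairs of rats with the same number had a median correlation of 0.0371, against -0.00804 for other pairs.

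Differences near 0 that were never called changed sign. The Cyp4a1 protein effect was 0.0075 with the same median and interquartile range, 0.0045 without the 3 arrays and -0.0367 to 0.0049 over left-out rats, and Cyp4a1 TF minus CF was -0.0154 without the 4 rats. The Cyp4a3 protein effect was -0.0491 to 0.0043 over left-out rats. That of Cyp4f6 was -0.0029 (quantile), -0.0113 (block), -0.0246 (without the 4 rats) and -0.0019 to 0.0307 over left-out rats. The oil effect of Cyp4f1 was 0.0247 (same median and range), 0.0016 (without the 3 arrays) and -0.0147 to 0.0051 over left-out rats. That of Cyp4f4 was -0.0066 (quantile), -0.0064 (block), -0.0022 (array weights), -0.0045 (without the 3 arrays) and -0.0175 to 0.0143 over left-out rats. That of Cyp4v3 was -0.0066 (quantile), -0.0068 (array weights), -0.0173 (mean of probe sets), -0.0185 (without the 3 arrays), -0.0379 (other probe set) and -0.019 to 0.03 over left-out rats. Over all probe sets the protein count was 357 with mean z above 0 only, 289 with the robust trend, 72 without the 4 rats and 74 without the 3 arrays, and the oil count without the 3 arrays was 34. The Cyp4a8 protein effect, 0.15 and not called (limma adjusted p = 0.598), was -0.0214 in its other probe set. In TF minus CS with quantile normalization the count stayed at 2, as Cyp4a3 was lost and Cyp4b1 gained (limma adjusted p = 0.0325). With the block the protein counts of the PPARα targets (4), the 13 peroxisomal genes (1) and the receptors (1, Nr1i3) were 2, 0 and 0, and that of the peroxisomal genes was 2 with array weights or mean z above 0 only. The oil count of the 13 peroxisomal genes (8) was 5 with the block and at most 9 elsewhere. The cause of these changes was not tested. The number of arrays, and the low signal of Cyp4a8, limit what could be seen.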
